A study of Mus musculus with 2 samples.

Results

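The Rtl1-antisense microRNAs are a compact group of hairpin genes in the imprinted Dlk1-Dio3 locus of mouse chromosome 12. Here they are 8 genes chosen by name and position, Mir337, Mir540, Mir665, Mir431, Mir433, Mir127, Mir434 and Mir136, out of 2202 annotated microRNA genes counted. Reads shorter than 30 nt were counted in 2 libraries of wild-type female mouse tissue, strain B6NCrl, labelled layer of hippocampus with no layer named. The labels give a single control group with no treatment, no recorded age and no added allele, and number the libraries as biological replicates 1 and 2. Both carry the same donor record and separate biosample records, so the spread between them may be technical, and p-values here compare 2 libraries and not animals or conditions.

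Rtl1 is a retrotransposon-derived gene that only the paternal chromosome expresses, while the maternal chromosome transcribes a long non-coding RNA from the other strand through the same region. Several hairpins are cut from this antisense RNA. Because they come from the opposite strand of the Rtl1 gene, their mature microRNAs are fully complementary to the Rtl1 mRNA and can direct its cleavage, and they can also act on other mRNAs through the seed, the bases 2 to 8 that pair with a target. The locus is strongly expressed in brain. The counts hold no information on the parental allele, and the Rtl1 mRNA was not measured.

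All 8 hairpins matched RefSeq entries (GRCm38.p6), each with a 5p and a 3p mature sequence. The 10 mature sequences of Mir431, Mir433, Mir127, Mir434 and Mir136 are shown because these are the genes that lie opposite the Rtl1 coding exon, with the seed in capitals.
mmu-miR-431-5p: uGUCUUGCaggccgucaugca
mmu-miR-431-3p: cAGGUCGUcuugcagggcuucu
mmu-miR-433-5p: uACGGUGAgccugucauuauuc
mmu-miR-433-3p: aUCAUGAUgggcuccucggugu
mmu-miR-127-5p: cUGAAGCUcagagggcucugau
mmu-miR-127-3p: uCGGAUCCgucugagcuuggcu
mmu-miR-434-5p: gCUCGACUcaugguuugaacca
mmu-miR-434-3p: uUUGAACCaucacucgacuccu
mmu-miR-136-5p: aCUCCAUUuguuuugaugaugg
mmu-miR-136-3p: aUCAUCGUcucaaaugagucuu

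Each of these 10 sequences had exactly 1 full-length complementary site in the annotated Rtl1 transcript of 6358 bases, and every site lay in the coding sequence. None of the 6 mature sequences of Mir337, Mir540 and Mir665 had one. The sites spread over the whole reading frame, from coding base 17 for mmu-miR-136-3p, near the start codon, to coding base 4925 for mmu-miR-431-5p, near the stop codon. The site for mmu-miR-127-3p, written as the Rtl1 strand with the seed match in capitals, lies at chr12:109592888-109592909 (mm10, minus strand) and starts in codon 832.
Rtl1 site of mmu-miR-127-3p: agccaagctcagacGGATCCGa

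The 16 mature sequences had 16 different seeds, so no pair of members forms a seed family. Among the 1679 mature mouse sequences of the RefSeq table, a seed of this group recurred only once, for mmu-miR-540-3p, whose seed is also that of mmu-miR-6915-5p. No hairpin of the 8 shared more than 14 consecutive bases with an annotated hairpin elsewhere. Multi-mapping reads enter no gene count, and 1135 of the 2202 genes share 18 or more bases with another hairpin, so this group is little exposed to that loss from other annotated hairpins. Lengths ran from 62 bases for Mir136 to 124 for Mir433. GC content ran from 40.3% for Mir136 to 61.2% for Mir540, beside medians of 89 bases and 50.8% over all hairpins.

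The name of the group holds for 5 of its genes. Mir431 (chr12:109590447-109590537), Mir433 (chr12:109591715-109591838), Mir127 (chr12:109592846-109592915), Mir434 (chr12:109594506-109594599) and Mir136 (chr12:109595327-109595388) lie on the plus strand opposite the Rtl1 coding exon, whose gene spans chr12:109589193-109600330 on the minus strand (mm10, GENCODE M21). Mir337 (chr12:109585789-109585885), Mir540 (chr12:109586080-109586146) and Mir665 (chr12:109586314-109586407) lie outside the annotated Rtl1 gene, 3308, 3047 and 2786 bases beyond its 3' end. No member lies inside the annotated bodies of Meg3 or Rian, the non-coding RNA genes on either side. Starts of the 8 hairpins fall within 9538 bases.

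Mir127 dominated the group. It is a microRNA known to repress the transcription factor Bcl6. It had 535034 sense counts in replicate 1 and 285843 in replicate 2, which is 79691 and 48439 CPM (sense counts per 1e6 sense counts over all microRNA genes), or 64065 ± 22099 CPM (SD, n = 2). It was the gene with the 4th highest level in replicate 1 and the 5th in replicate 2. These ranks leave out multi-mapping reads, so genes with near-copies may be ranked too low beside it. A count is a short read assigned to a hairpin with both arms pooled, so no length scaling was applied, and which arm gave the reads was not resolved. The Mir127 hairpin is shown with its 5p and 3p arms in capitals.
Mir127 hairpin: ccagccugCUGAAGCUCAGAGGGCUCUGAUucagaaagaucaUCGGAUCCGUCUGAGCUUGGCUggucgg

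Mir433, reported elsewhere to target the growth factor mRNA FGF20, came next. It had 76582 and 47450 counts, or 11407 CPM in replicate 1 and 8041 CPM in replicate 2, a mean of 9724 ± 2380 CPM (SD, n = 2). Mir434 came next with 18241 and 18447 counts. That is 2717 CPM against 3126 CPM in replicate 2, a mean of 2921 ± 289 CPM (SD, n = 2).

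The means of the remaining members ran from 1729 CPM for Mir337 down to 31.7 CPM for Mir136. Mir337 had 13453 and 8585 counts, or 2004 and 1455 CPM. Mir431, described as a regulator of the Wnt antagonist Kremen1 in regenerating sensory neurons, had 5654 and 3752 counts, or 842 and 636 CPM. Both were lower in replicate 2, as were the smaller members. Mir540 had 4428 and 3029 counts, or 660 and 513 CPM. Mir665 had 1746 and 1083 counts, or 260 and 184 CPM. Mir136 was far below its neighbours, with 240 and 163 counts, or 35.7 and 27.6 CPM. Its start lies 821 bases beyond that of Mir434. Whether they share a precursor RNA was not measured.

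**Figure D1:**
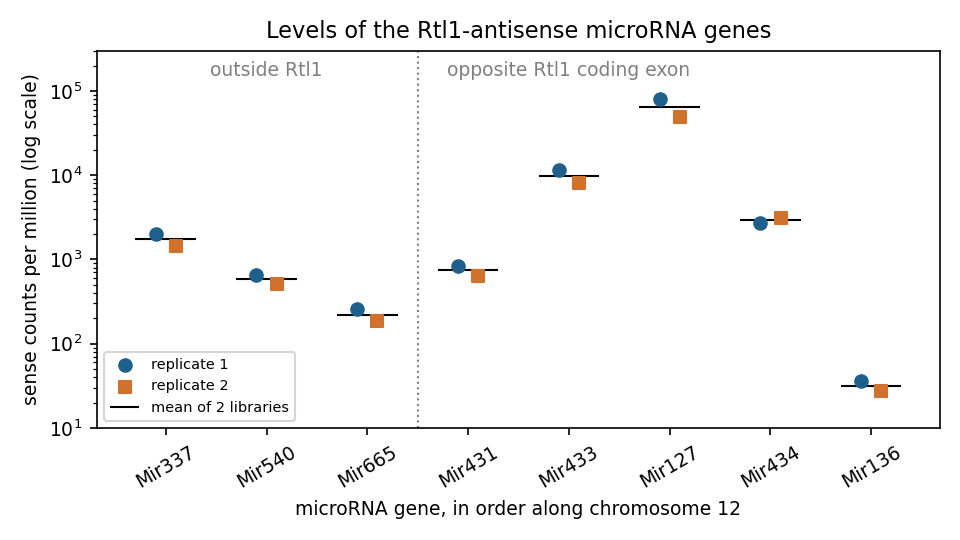
Level of each gene in CPM on a log axis, in order along the chromosome; circles are replicate 1, squares replicate 2, bars the mean of the 2 libraries. Mir127 stands highest at 64065 CPM, its direct neighbours Mir433 and Mir434 are lower, and Mir136 is lowest at 31.7 CPM; Mir434 is the only member whose square lies above its circle.

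Both libraries gave the same order of levels, Mir127, Mir433, Mir434, Mir337, Mir431, Mir540, Mir665 and Mir136. For 6 of the 7 neighbouring pairs in that order the values of the 2 libraries did not overlap. The exception was Mir431 and Mir540, whose means differed 1.26-fold while their ranges overlapped. The steps between neighbours were otherwise 6.59-fold from Mir127 to Mir433, 3.33-fold to Mir434, 1.69-fold to Mir337, 2.34-fold to Mir431, 2.64-fold from Mir540 to Mir665 and 7.0-fold to Mir136. With 2 libraries no test between genes was made. How evenly the different sequences were captured was not measured.

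Together the 8 genes held 9.76% of all sense counts in replicate 1 (exact 95% interval 9.74 to 9.78) and 6.24% in replicate 2 (exact 95% interval 6.22 to 6.26). Their summed level was 80018 ± 24886 CPM (SD, n = 2). The 5 genes opposite the Rtl1 coding exon supplied 97.0% and 96.6% of it, and the 3 genes outside Rtl1 supplied 2.99% and 3.45%. Intervals cover counting error only. The shares of all sense counts leave out multi-mapping reads, which were 43.9% of reads in replicate 1 and 45.9% in replicate 2.

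Shares within the group do not depend on how a library is scaled. Mir127 took 81.6% of the group's counts in replicate 1 (exact 95% interval 81.5 to 81.7) and 77.6% in replicate 2 (exact 95% interval 77.5 to 77.7). Mir433 took 11.7% and 12.9%. The share of Mir434 was 2.78% in replicate 1 (exact 95% interval 2.74 to 2.82) and 5.01% in replicate 2 (exact 95% interval 4.94 to 5.08), intervals that do not overlap. The other 5 members each held under 3% in both libraries, with Mir337 at 2.05% and 2.33% and Mir136 at 0.0366% and 0.0443%. Per Mir434 count there were 29.3 counts of Mir127 in replicate 1 and 15.5 in replicate 2, whereas per Mir433 count there were 6.99 and 6.02.

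Strand decided whether 2 of the members were seen at all. Mir337 lies opposite Mir3544 and Mir136 lies opposite Mir3071, so that a read there cannot be given to 1 gene without its strand. In the deposited column counted without strand, Mir337 had 3 counts in replicate 1 and 0 in replicate 2, and Mir136 had 0 in both. On their own strand these genes had the counts given above. The other 6 members had the same counts with and without strand, and no count on the opposite strand in either library. The gene opposite Mir136, Mir3071, had no sense count in either library, a 0 that allows up to 0.447 CPM in replicate 1 and 0.508 CPM in replicate 2. Mir3544 had 16 and 2.

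The mature sequences of this pair overlap on opposite strands, and are shown with the seeds in capitals.
mmu-miR-337-5p: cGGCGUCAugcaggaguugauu
mmu-miR-337-3p: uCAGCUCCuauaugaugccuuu
mmu-miR-3544-5p: aGAAAGGCaucauauaggagcug
mmu-miR-3544-3p: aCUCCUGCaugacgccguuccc

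Against the 16 and 2 counts of Mir3544, Mir337 had 13453 and 8585. Other hairpins annotated between Mir337 and Mir136 on the plus strand had few counts. Mir3070a had 87 and 56 counts and Mir3070b 97 and 75. These near-copies share 30 or more bases with each other, and their counts leave out reads from the shared part. Mir432, between Mir434 and Mir136, had none in either library.

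All 8 members were called between the libraries, 7 lower and 1 higher in replicate 2, by the rule given next. Over all genes the same rule called 53.6% of the 466 genes tested, 35.6% lower and 18% higher; a gene was tested if its counts averaged at least 10. The rule was a 2-sided Fisher exact test of the gene against all other sense counts, with a Benjamini-Hochberg adjusted p under 0.05 over those 466 genes, and 1 sign of the log2 ratio of replicate 2 over replicate 1 under 3 scalings. These were the TMM factors of edgeR (trimmed means of M values), library totals and DESeq2 size factors. For Mir136 a margin of 2 SE around its ratio under TMM included 0. High counts make this test sensitive: with a minimum mean of 50 counts it called 71.0% of 328 genes, and all 8 members pass that minimum. Under TMM no member differed by 1.5-fold or more, whereas 25.8% of all tested genes were called and did. Under library totals, a scaling chosen for this count after seeing the data, 1 member passed 1.5-fold, Mir127 with a log2 ratio of -0.72, beside 27.3% of all tested genes.

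Mir127 had the largest difference among the members. Its log2 ratio of replicate 2 over replicate 1, with 0.5 counts added and with library scaling by TMM, was -0.56 (counting SE 0.00334), a level 1.47-fold higher in replicate 1. Of all tested genes, 19.1% had a ratio below it. Mir433 followed at -0.34 (SE 0.00843). For these members the adjusted p of the Fisher exact test was below the smallest number the software holds.

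The less abundant members, apart from Mir434, were also lower in replicate 2, by smaller amounts. Ratios were -0.34 (SE 0.0558) for Mir665, -0.30 (SE 0.0199) for Mir337, -0.24 (SE 0.0304) for Mir431 and -0.20 (SE 0.0340) for Mir540, with adjusted p-values of the Fisher exact test from 2.22e-120 for Mir337 to 3.48e-19 for Mir665. The 3 genes outside Rtl1 thus had ratios from -0.34 to -0.20, beside -0.56 to -0.21 for the 4 lower genes opposite its coding exon. Mir136 had a ratio of -0.21 (SE 0.146), and its adjusted p was 0.0203 by the same exact test. That test compares shares of the raw totals, not of the TMM-scaled library sizes.

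Mir434 went the other way. Its log2 ratio was 0.36 (SE 0.0151), a 1.29-fold higher level in replicate 2, with an adjusted p of 1.67e-40 by the Fisher exact test. Of all tested genes 76.4% had a lower ratio. The sign of each of the 8 ratios held whether TMM, library totals or DESeq2 size factors set the scale, with Mir434 at 0.20 and Mir127 at -0.72 under totals. All 466 tested genes had a median ratio of -0.02 under TMM, -0.03 with DESeq2 and -0.18 with totals, so ratios under totals are read against that shift.

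**Figure D2:**
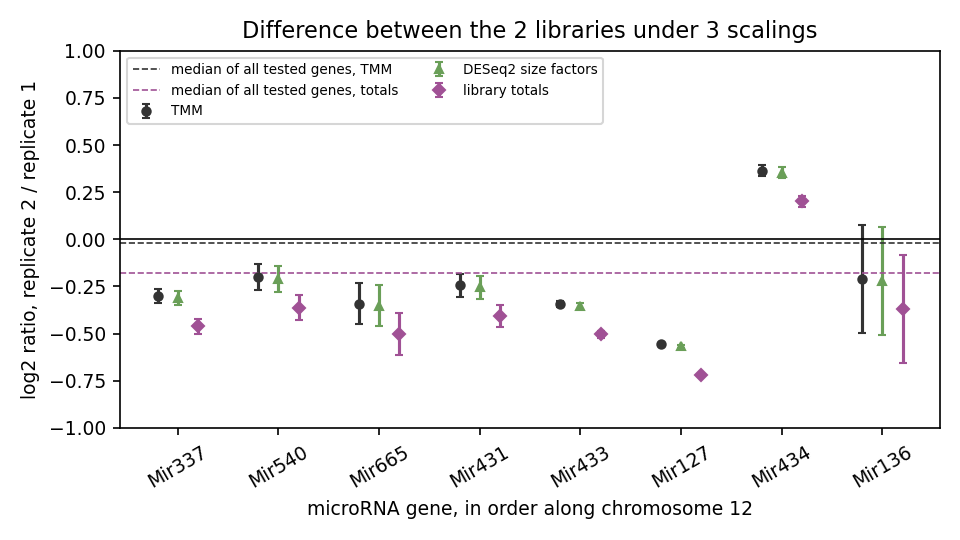
Log2 ratio of replicate 2 over replicate 1 for each gene under 3 scalings, with bars that span 95% counting intervals; dashed lines are the medians of all tested genes under TMM and under totals. Mir434 lies above 0 under each scaling (0.36 under TMM), the other 7 members lie below 0, and the bars of Mir136 cross 0 under TMM and DESeq2 size factors.

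The median log2 ratio of the 8 members was -0.27 under TMM, beside -0.02 for all tested genes. The members lie in 1 stretch of the locus and were not taken as independent of each other. The summed counts of the 8 had a ratio of -0.48, and -0.20 without Mir127, so Mir127 carried most of the difference in the sum. Member ratios spanned 0.92 on the log2 scale, and 0.36 without Mir434.

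**Figure D3:**
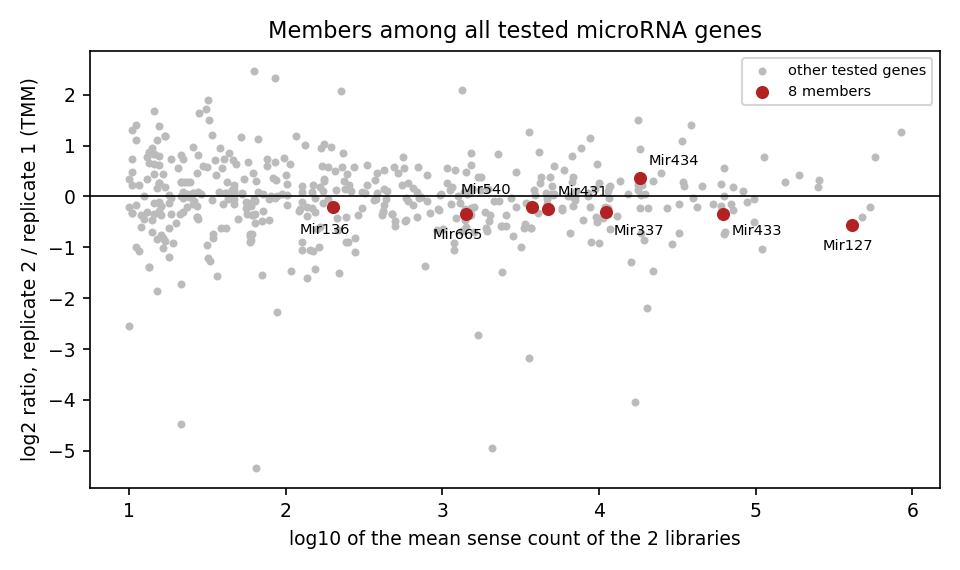
Log2 ratio of replicate 2 over replicate 1 under TMM against log10 of the mean sense count, for 466 tested genes; red points are the 8 members, grey points the others. The members lie between -0.56 and 0.36, inside the cloud of other genes, and Mir127 is near the right edge.

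Within the locus the group was the most abundant stretch, a place that rested on Mir127. The group held 56.6% of the counts of all microRNA genes between Dlk1 and Dio3 in replicate 1 and 55.0% in replicate 2. The 38 genes of the distal array from Mir379 to Mir410 held 27.2% and 30.6%, led by Mir382, Mir541 and Mir411 at 9847, 6594 and 5071 CPM. The 13 other plus-strand genes, here called the Meg3 and Rian genes, held 16.2% and 14.3%, led by Mir770, Mir370 and Mir341 at 17013, 2893 and 1512 CPM. This set also takes in Mir3070a, Mir3070b and Mir432, which lie between Mir337 and Mir136. Mir433 thus stood at a mean level close to that of Mir382, the leading gene of the distal array. Without Mir127 the other 7 members summed to a mean of 15953 CPM. That is below the mean sums of 22118 CPM for the Meg3 and Rian genes and 40784 CPM for the distal array. Some genes of those stretches share 18 or more bases with another hairpin, such as Mir411 with 21. Their counts may leave out reads from the shared part.

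**Figure D4:**
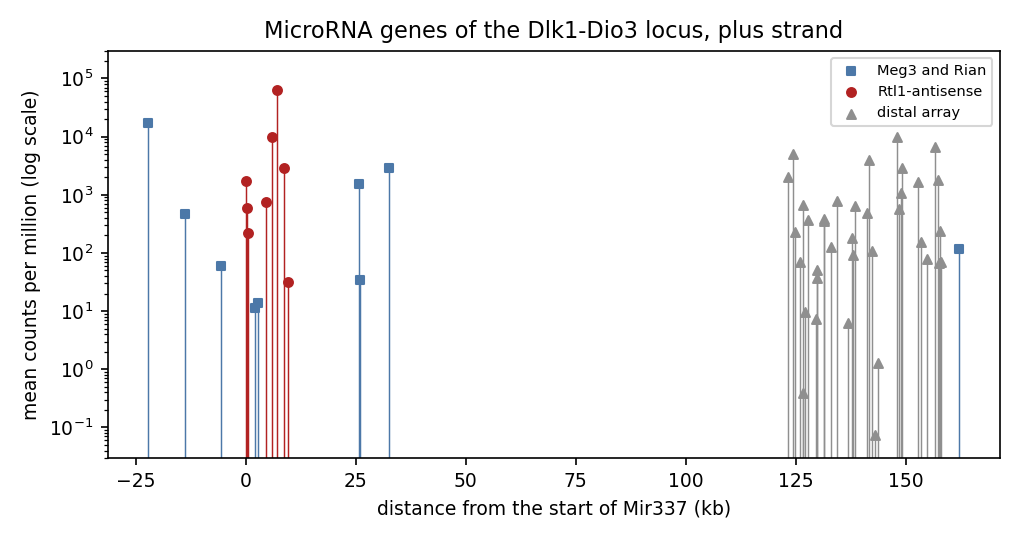
Mean level of plus-strand microRNA genes of the Dlk1-Dio3 locus with any count, in CPM on a log axis, against the distance of each gene's start from that of Mir337 in kb; colours and symbols mark the 3 stretches. The 8 members (circles) fall within the first 10 kb and include the highest gene of the locus, Mir127 at 64065 CPM.

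The other stretches also had lower sums in replicate 2, with log2 ratios under TMM of -0.62 for the Meg3 and Rian genes and -0.27 for the distal array. Of 9 tested genes of the Meg3 and Rian set 5 were lower, 2 were higher and 2 did not pass. Those that did not pass were Mir3070a and Mir3070b, which lie between Mir337 and Mir136. Of 33 tested distal genes 16 were lower, 5 were higher and 12 did not pass. These comparisons use the same libraries. Mir434 was not the only gene of the locus that was higher in replicate 2, and Mir370, within Rian, had a larger ratio, 1.5 (SE 0.0166). Whether the stretches differ from each other was not tested.

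Outside the locus the genes nearest to Mir127 in level, by the distance in log2(CPM + 1) over the 2 libraries, were Mirlet7g, Mirlet7i and Mirlet7d. They are let-7 family members. Mirlet7g had 89071 and 59962 CPM at a distance of 0.347, beside 79691 and 48439 CPM for Mir127. The other 2 were further off. Mirlet7i had 94910 and 73784 CPM at a distance of 0.657, and Mirlet7d had 39215 and 39721 CPM at a distance of 1.06. With 2 libraries these distances say only how near the levels were in each.

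The libraries held 6713867 and 5901107 sense counts of 15794475 and 14300757 reads. Reads mapping to several places were 43.9% and 45.9%, which the counts leave out. Of the marker lists, 14 neuronal microRNA genes summed to 34277 and 34293 CPM, with Mir124a-2 alone at 0. Of 5 muscle genes Mir206 alone had counts, 32.6 and 19.3 CPM, and Mir1a-1, Mir1a-2, Mir133a-1 and Mir133a-2 were at 0. Like Mir124a-2 these are numbered copies. Reads that fit several copies enter no count, so these values of 0 do not show absence. The neuronal list holds other numbered copies too, so its sum may be too low beside the other lists. Summed levels of some other cell types were lower in replicate 2 along with 7 members. These sums are scaled by library totals, under which all tested genes had a median log2 ratio of -0.18. The 3 oligodendrocyte genes had 7078 and 3193 CPM, Mir126a of endothelium 6191 and 2897 CPM, and the 2 erythrocyte genes 72.2 and 31.7 CPM. The 3 genes listed for astrocytes, Mir23b, Mir125a and Mir29a, had 48378 and 55777 CPM and the 3 leukocyte and microglia genes 2015 and 2233 CPM. Whether a list is particular to its cell type was not tested. The 3 choroid plexus and ependyma genes had 2016 and 1728 CPM, and Mir122 of liver 55.1 and 42.0 CPM. The part of cell composition in the differences was not tested, and in bulk tissue fewer cells of a type and less RNA per cell cannot be told apart. The adapter-trimming document named in the labels also differs between the libraries, so that trimming, library and biosample cannot be told apart.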

How the data were processed

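The authors deposited raw whole-number counts per microRNA gene, 1 file per library, for mm10 and GENCODE M21 per the notes deposited with each library. Per the labels, RNA under 30 nt was sequenced after a multiplexed microRNA protocol and adapters were trimmed. The aligner is not given in the sources used here, nor is the counter. Each file has 3 count columns without headings, whose values show them to be counts without strand, on the gene's strand and on the opposite strand, and 4 read classes, which were left out of library sizes. All 2202 identifiers matched GENCODE M21.

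Levels are CPM from the sense column over all gene rows, as mean ± SD. Ratios add 0.5 counts and use TMM factors from edgeR 4.0.16 over all genes with a count, with library totals and DESeq2 1.42.0 size factors as alternatives. Their standard errors cover counting only. With 1 library a side neither tool can test, so a Fisher exact test (SciPy 1.17.1) was run over 466 genes, those with counts averaging at least 10. A 0 was given a floor of 3 counts. Shared stretches were searched on both strands among annotated hairpins only. Sequences are from RefSeq and the Rtl1 transcript from GENCODE M21. The exact test was tested on simulated data with counting error and set fold changes only. That does not show how it behaves under other variation between libraries.

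Named genes were the 8 members, the hairpins among and opposite them, the 3 leading genes of each other stretch and the 3 genes nearest to Mir127. Mir124a-2, Mir126a, Mir122, the 3 astrocyte genes and the 5 muscle genes were named after their values were seen. The members, lists and tests were chosen with earlier results of these data known.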

Additional observations from a re-analysis of the deposited data

Results flagged for a closer look

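The column of reads on the opposite strand, which no level above uses, held 19 counts opposite Mir337 in replicate 1 and 2 in replicate 2. A count of 0 allows up to 3, so only replicate 1 exceeded that limit. Of these reads 16 and 2 were counted as sense reads of Mir3544. The other 7 members had no count on the opposite strand in either library.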

How the results depend on the processing

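The exact test uses neither the scaling nor the added counts, and 1 sign under the 3 scalings is part of the call, so those settings could not change a call and show nothing about its stability. Counted without strand, Mir337 and Mir136 had too few counts to be tested. Of the 6 members tested 6 were called, beside 52.8% of all 441 genes tested. Requiring a difference of at least 1.5-fold or 2-fold under TMM left 0 members (25.8% and 11.4% of all tested genes). Under library totals, added after seeing the data, the same folds left 1 member, Mir127, and 0 members (27.3% and 13.1%). By the Fisher exact test alone 8 members passed, beside 57.5% of all 466 genes tested. With no filter on low counts 8 were also called, beside 31.3% of 787 genes.

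The summed level was 33626 CPM with all reads in the denominator and 122249 CPM without genes sharing 18 or more bases, both by construction. It was 62421 without replicate 1 and 97616 without replicate 2, and the share of Mir127 then ran from 77.6% to 81.6%. The median member ratio was -0.43 under totals, -0.28 under DESeq2 size factors, -0.30 without strand (6 genes) and -0.27 with 5 or no counts added. For the 8 members, the Meg3 and Rian genes and the distal array the summed ratios under totals were -0.65, -0.78 and -0.43. Under DESeq2 size factors they were -0.49 for the members and -0.28 for the distal array, without strand -0.49 and -0.30, and -0.29 for the distal array without genes sharing 18 or more bases. No paired analysis was possible because there is only 1 group. Depth limits Mir136 most, with 240 and 163 counts.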

Other observations

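The arms of Mir431 and Mir434 repeat each other in part. Within Mir431 the 5p and 3p mature sequences share a run of 10 bases in the same direction, GUCUUGCAGG, and within Mir434 they share 9 bases, UUUGAACCA. In the other 6 members the longest such run was 4 to 6 bases. Both genes lie opposite the Rtl1 coding exon.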
